A study of Mus musculus with 6 samples.

Results

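Chemokines and their receptors were described in kidneys of diabetic mice labelled as knockout or wild type for Cdo1, which encodes cysteine dioxygenase, an enzyme of cysteine breakdown and taurine synthesis. The genes were chosen by name: every protein-coding gene of the CC, CXC, CX3C and XC chemokine families, their receptors and the atypical receptors Ackr1 to Ackr4, which gave 61 of 55401 genes in the deposited tables. They comprised 38 ligands, 19 signalling receptors and 4 atypical receptors. Cxcl11 and 2 copies of Ccl19 matched by name but were left out because the tables class them as pseudogenes, Cxcl11 as a polymorphic one. 6 kidney libraries of poly(A) RNA were compared, 3 labelled Cdo1KKO/Sed (genotype KO) and 3 labelled WT/Sed (genotype WT). All 6 mice had been given streptozotocin, which destroys insulin-producing beta cells, so both groups carried a model of type 1 diabetes with nephropathy and no library came from a mouse without diabetes. The question behind the comparison was which pathways respond to Cdo1 of the renal tubule. The meaning of Sed, the promoter behind the knockout, and the ages, sexes, litters and batches of the mice were not given in the sources used here. Each library is labelled as a separate biological replicate.

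Chemokines are small secreted proteins that bind to matrix and endothelium and direct leukocytes through receptors coupled to G proteins. The families are named after the spacing of conserved cysteines. CXC ligands with a Glu-Leu-Arg (ELR) motif act on Cxcr2 and draw neutrophils, the interferon-induced ligands of Cxcr3 draw activated T and NK cells, and the ligands of Ccr2 draw monocytes. Atypical receptors bind chemokines without G protein signalling and take them up or carry them across cells. In injured kidney, tubule epithelium, endothelium and resident macrophages are all known sources of chemokines.

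Cxcl1, Cxcl2, Cxcl3 and Cxcl10 rose and each held 2 NF-kappaB-like matches, so their upstream sequences are shown; NF-kappaB is a family of transcription factors that inflammatory signals activate. The bases are from RefSeq (GRCm38.p6), 5′ to 3′ on the strand of the gene, from 130 bases before the transcript start (250 for Cxcl10) to 31 bases before it. Capitals mark matches to the NF-kappaB-like letters GGGNNNTTCC on either strand, and in Cxcl10 also to the letters GAAANNGAAA of an interferon-stimulated response element (ISRE). Overlapping matches on the 2 strands are joined into 1 capital run.
Cxcl1 promoter, chr5:90891115-90891214, plus strand: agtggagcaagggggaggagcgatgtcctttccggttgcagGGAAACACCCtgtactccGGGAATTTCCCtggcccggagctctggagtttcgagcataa
Cxcl2 promoter, chr5:90903769-90903868, plus strand: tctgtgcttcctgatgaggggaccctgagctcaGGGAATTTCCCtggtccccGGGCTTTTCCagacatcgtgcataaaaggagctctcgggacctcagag
Cxcl3 promoter, chr5:90785971-90786070, plus strand: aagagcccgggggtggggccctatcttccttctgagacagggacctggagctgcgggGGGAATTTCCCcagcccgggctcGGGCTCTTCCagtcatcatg
Cxcl10 promoter, chr5:92348920-92349139, minus strand: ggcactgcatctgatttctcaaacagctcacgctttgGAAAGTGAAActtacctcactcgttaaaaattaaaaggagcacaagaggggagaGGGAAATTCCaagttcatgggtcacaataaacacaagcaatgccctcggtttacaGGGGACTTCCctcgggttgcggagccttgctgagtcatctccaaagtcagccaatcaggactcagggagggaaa
The run GGGAATTTCCC stood in the promoters of Cxcl1, Cxcl2 and Cxcl3, from 71, 97 and 73 bases before the start, and a further NF-kappaB-like match lay close by in each. In the 250 bases before the start, 9 of the 47 members with a promoter in the RefSeq table held an NF-kappaB-like match (19.1%), against 5.31% of 27025 genes. Of these 9, Ccl9, Cxcl1, Cxcl2, Cxcl3 and Cxcl10 rose, and Ccl1, Ccl20, Ccr3 and Ccr6 were too low to test. All other members that rose had no such match or no promoter in that table. The 11-letter run itself was found in 14 of the 27025 genes (0.0518%), counted after it had been seen in these 3 genes. An ISRE-like match was present in 3 of the 47 members (Ccl19, Cxcl10 and Cxcl14; 6.38%), against 3.46% of all genes. A match shows only that the letters are there, and 14 members have no entry in that table.

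Position grouped the genes as well as function (GRCm38, GENCODE M21, with a position for 58 of the 61). Cxcl5, Cxcl3, Cxcl15, Cxcl1 and Cxcl2 lie within 146.6 kb of chromosome 5 (90759360 to 90905938), and Cxcl9 and Cxcl10 within 27.5 kb further along it (92321347 to 92348889). On chromosome 11, Ccl2, Ccl7, Ccl11, Ccl12, Ccl8 and Ccl1 span 82035571 to 82305690, and Ccl5, Ccl9, Ccl6, Ccl3 and Ccl4 span 83525778 to 83664683. The receptor genes Ccr1, Ccr1l1, Ccr3 and Ccr2 lie side by side on chromosome 9.

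The libraries held 30711895 to 43081847 counts in Cdo1KKO/Sed and 28145261 to 43872779 in WT/Sed. Cdo1 was counted at 109.5, 118 and 102 CPM in Cdo1KKO/Sed and 181, 191 and 180.5 CPM in WT/Sed, so that Cdo1KKO/Sed kidneys held 59.8% of the WT/Sed mean (log2 fold change -0.74 ± 0.06, adjusted p = 4.64e-06). Markers listed for proximal tubule, among them megalin (Lrp2) and the phosphate transporter Slc34a1, were all present and all 7 fell, with a summed level of 5152 to 5700 CPM in Cdo1KKO/Sed and 8543 to 9222 CPM in WT/Sed. CPM values are counts divided by TMM-scaled library sizes, and means are given ± SD over 3 libraries. Each log2 fold change is that of Cdo1KKO/Sed relative to WT/Sed, and its SE is approximate, from the fold change and its F statistic. The words rose and fell are kept for genes with an adjusted p under 0.05 in edgeR's quasi-likelihood test (Benjamini-Hochberg over all genes tested). Of 17194 genes tested, 18.9% rose and 18.5% fell. Higher calls made up 50.5% of all calls, and 76.6% with library size as the only scaling, which put the median of all genes at 0.18 rather than 0.01; 23 members rose and 3 fell on that scale. In whole kidney, fewer cells of a type and less RNA per cell cannot be told apart.

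Most chemokine genes with enough counts were higher in Cdo1KKO/Sed kidneys. 35 of the 61 members passed the filter on low counts, 19 had some counts but did not pass, and 7 had none in any library (Ackr1, Ccl21b, Ccl21d, Ccl26, Ccl27b, Ccr1l1 and Cxcr1). Of the 35, 22 rose (18.9% of all genes tested) and 3 fell (18.5%), or 25 in either direction (37.4%). 18 rose by at least 1.5 on the log2 scale (3.97% of all genes tested). The 22 comprised 17 ligands and 5 receptors. Ccl28, Ackr3 and Ackr4 were the members that fell. The median log2 fold change over the 35 was 1.82, against 0.01 over all genes tested. With Cxcl3 set to its bound it was 1.82 too, but this could not move the median, since Cxcl3 lies above it either way. 9 of the 35 reached the count minimum in no WT/Sed library: Cxcl2, Cxcl3, Cxcl5, Cxcl13, Cxcl17, Ccl7, Ccl12, Ccr7 and Cxcr2. They could enter the test only by being high in Cdo1KKO/Sed. Ccl2 and Cxcr3 reached the minimum in 1 WT/Sed library, and Cxcl9, Cxcr6 and Xcr1 in 2. These also needed Cdo1KKO/Sed libraries to pass. The adjusted p values of all these members, and the median and counts over the 35, are therefore a description. Among the 21 members that reached the count minimum in all 3 WT/Sed libraries, 12 rose and 3 fell, where 18.6% and 20.8% of 15313 such genes did. The groups did not overlap in 25 members with Cdo1KKO/Sed above (25.7% of all genes tested) and in 3 with Cdo1KKO/Sed below (24.5%).

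**Figure D1:**
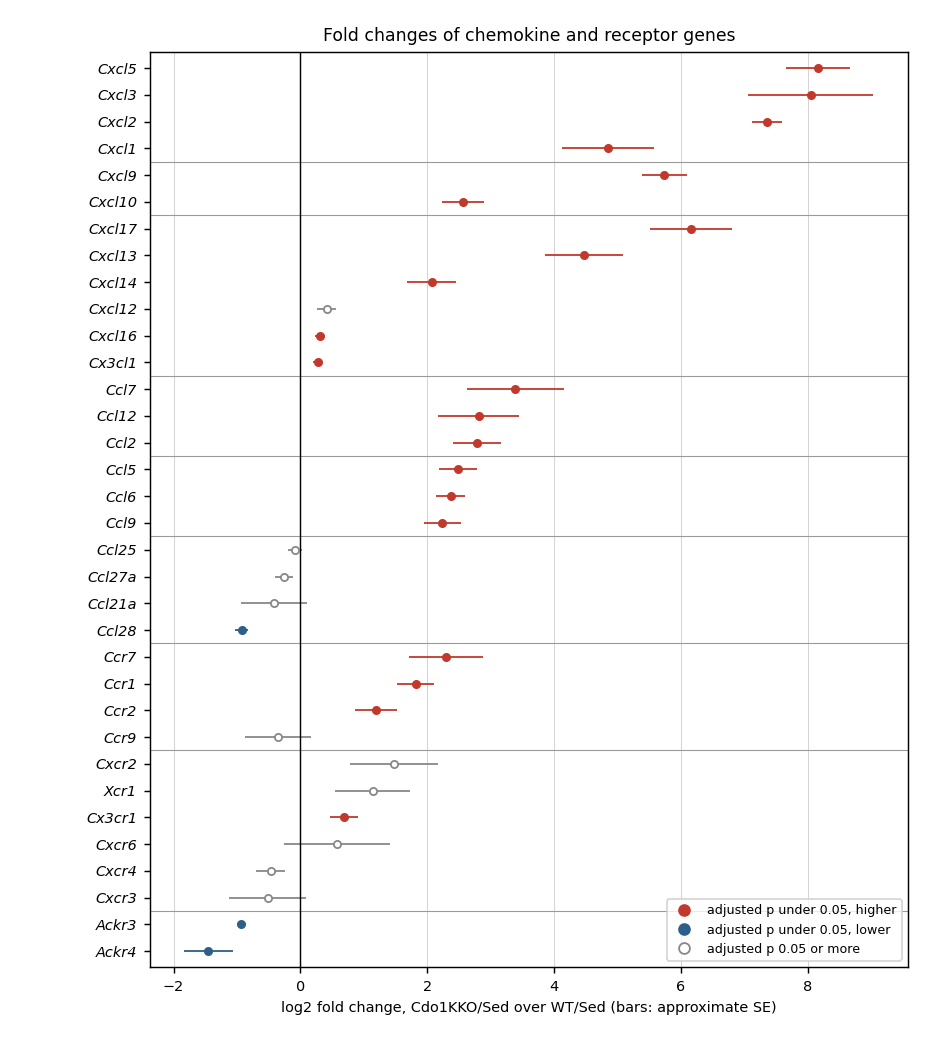
Log2 fold changes of 34 members, Cdo1KKO/Sed over WT/Sed, in groups by role from the ELR ligands at the top to the atypical receptors at the bottom; bars are the approximate SE and open circles mark members with an adjusted p of 0.05 or more. Cxcl5, Cxcl3 and Cxcl2 lie farthest to the right and Ccl28, Ackr3 and Ackr4 are the filled points left of 0; the value of Cxcl3, with 0 counts in WT/Sed, depends on the prior count.

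All 4 neutrophil-attracting ELR ligands that could be tested rose, but Cxcl2, Cxcl3 and Cxcl5 entered the test only through their Cdo1KKO/Sed counts. Cxcl1 was counted at 109.7, 122 and 108 CPM in the Cdo1KKO/Sed libraries, against 4.47, 7.72 and 0.486 CPM in the WT/Sed libraries. Every Cdo1KKO/Sed library lay far above every WT/Sed library, and WT/Sed replicate 3 was far below the other WT/Sed libraries. Cxcl1 averaged 113 ± 7.57 CPM in Cdo1KKO/Sed and 4.23 ± 3.62 CPM in WT/Sed (log2 fold change 4.85 ± 0.72, adjusted p = 0.00827). Its log2 fold change was 5.54 without WT/Sed replicate 2 and 4.26 without WT/Sed replicate 3. Cxcl2, a close relative made by macrophages and epithelium on inflammatory stimulation, stood at 19.5, 19.4 and 18.4 CPM in Cdo1KKO/Sed and 0.0514, 0.225 and 0.0973 CPM in WT/Sed. Its Cdo1KKO/Sed libraries were nearly equal and its WT/Sed libraries were close to 0 (log2 fold change 7.36 ± 0.23, adjusted p = 3.56e-09).

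Cxcl5, an ELR ligand known from epithelial cells, was counted at 10.7, 9.05 and 15.2 CPM in Cdo1KKO/Sed, while WT/Sed held 4 counts, all in replicate 1. The ratio of counts was 317 (95% counting interval 124 to 1166; adjusted p = 4.60e-06). Cxcl3 stood at 0.551, 0.931 and 1.13 CPM in Cdo1KKO/Sed and had no count in WT/Sed (adjusted p = 0.000222). Its 107 counts, over the summed library sizes of each group, were 32.2-fold the 3 counts over the group that 0 counts allow. That value leaves out the counting error of the 107, and the lower 95% counting limit of the ratio was 25.7. Cxcl15, which lies between Cxcl3 and Cxcl1 on chromosome 5, had 2 counts in each group. Among the members in this cluster, Cxcl15 was therefore almost uncounted while the other 4 rose. Genes outside the naming rule are not covered by that comparison. Counts from 1 to 20 were even in 71.6% to 74.5% of cases, against at most 51.7% of counts over 1000. Low counts may thus hold both reads of a pair, and intervals and limits, which cover counting error only, would then be wider.

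The receptor for these ligands was barely counted. Cxcr2 held 42 counts over the 3 Cdo1KKO/Sed libraries and 14 over WT/Sed, or 0.429, 0.402 and 0.262 CPM against 0.206, 0 and 0.146 CPM. The groups did not overlap, but the difference did not pass the test (log2 fold change 1.48 ± 0.69, adjusted p = 0.119). With TPM values plus 1 or plus 0.1 it was called higher, within a range of adjusted p of 0.028 to 0.273 over the alternatives. Cxcr1 had no count. Neutrophil markers were higher in the same libraries: 5 of the 6 markers tested rose out of 10 listed, where 18.9% of all genes tested rose. The 10 summed to 15.2 to 18.8 CPM in Cdo1KKO/Sed and 2.32 to 3.14 CPM in WT/Sed. Ltf gave no call (log2 fold change 1.38 ± 0.59, adjusted p = 0.0898). S100a8 and S100a9 made up most of the Cdo1KKO/Sed sum, while the granule genes Camp, Mpo and Elane had no count in WT/Sed and were too low to test. So was Ly6g, with 2 counts in each group. Markers of injured tubule (Havcr1, Lcn2, Krt20 and Sox9) all rose too, with a summed level of 1787 to 2020 CPM in Cdo1KKO/Sed and 5.51 to 23.1 CPM in WT/Sed. The part of neutrophils or injured tubule in the rise of the ELR ligands was not tested.

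**Figure D2:**
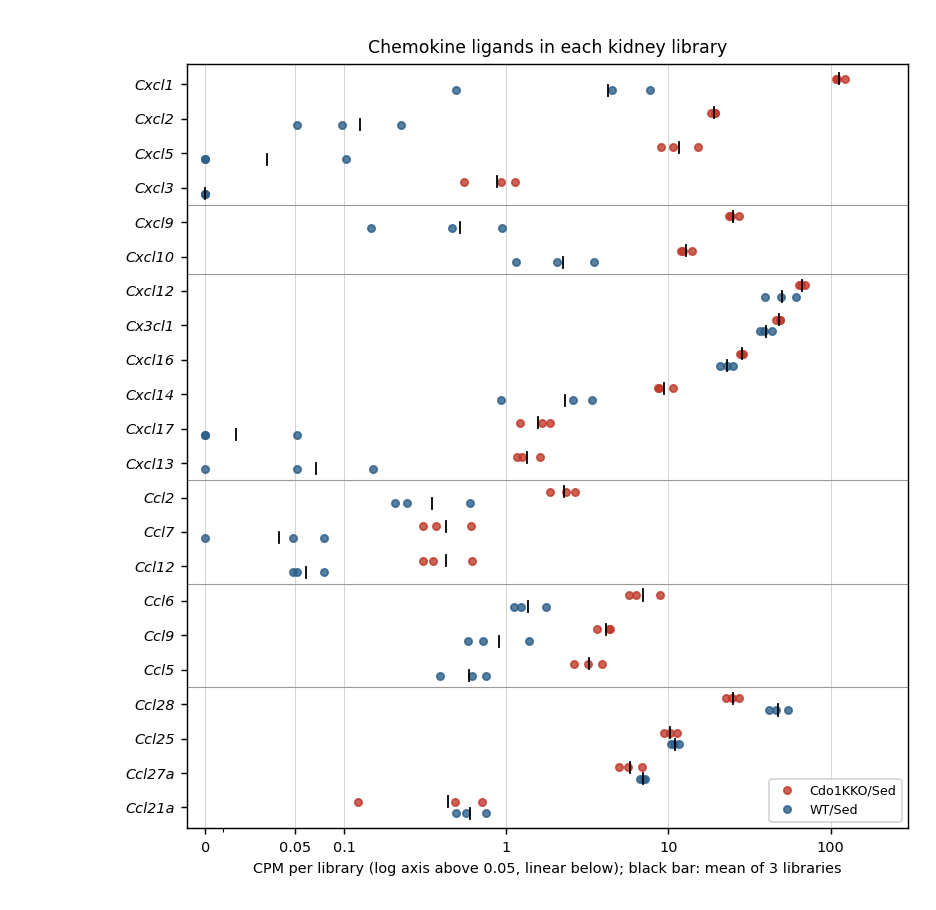
CPM of the 22 ligands tested in each library, Cdo1KKO/Sed above WT/Sed within each gene; points are libraries and black bars the means of 3. Lines separate, from the top, ELR ligands, ligands of Cxcr3, other CXC and CX3C ligands, ligands of Ccr2, ligands of Ccr1 and Ccr3, and lymphoid and barrier ligands; in the upper groups the points of Cxcl1 near 110 CPM stand far from those of WT/Sed, and in the lowest group the points overlap apart from Ccl28.

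Both members that are ligands of Cxcr3 rose, and the receptor gave no call. A further ligand, Cxcl11, was left out by its class as a polymorphic pseudogene. It had 60, 99 and 58 counts in Cdo1KKO/Sed and 23, 8 and 24 in WT/Sed. Cxcl9, induced by interferon gamma, reached 23.6, 27.2 and 24.4 CPM in Cdo1KKO/Sed, against 0.463, 0.937 and 0.146 CPM in WT/Sed (log2 fold change 5.74 ± 0.35, adjusted p = 2.01e-05). Cxcl10, whose promoter is shown above, stood at 12.3, 14.1 and 11.9 CPM in Cdo1KKO/Sed and 2.06, 3.49 and 1.14 CPM in WT/Sed (log2 fold change 2.57 ± 0.33, adjusted p = 0.000712). The 3 Cdo1KKO/Sed libraries lay close together for both genes, and the WT/Sed libraries ranged widely, with replicate 2 highest and replicate 3 lowest. Without WT/Sed replicate 2 the log2 fold change of Cxcl9 was 6.37. Cxcr3 itself was at 0.245, 0.201 and 0.262 CPM in Cdo1KKO/Sed and 0.257, 0.675 and 0.146 CPM in WT/Sed, with overlapping groups (log2 fold change -0.52 ± 0.61, adjusted p = 0.547). T cell markers gave no call in any of the 6 genes tested (9 listed), with summed levels of 3.74 to 4.78 CPM in Cdo1KKO/Sed and 2.02 to 5.43 CPM in WT/Sed. None of the 3 NK cell markers tested was called either (7 listed; 1.85 to 2.24 CPM in Cdo1KKO/Sed and 0.754 to 1.57 CPM in WT/Sed). Of all genes tested, 37.4% were called in either direction. Cdo1KKO/Sed lay above without overlap in 2 of these 3 and in 1 of the 6 T cell markers (25.7% of all genes tested). Ifng, the gene of interferon gamma, had no count in any library.

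Of the other CXC and CX3C ligands, Cxcl13, Cxcl14 and Cxcl17 changed strongly and the abundant Cxcl12, Cxcl16 and Cx3cl1 little. Cxcl13, which guides B cells through Cxcr5, was at 1.16, 1.26 and 1.61 CPM in Cdo1KKO/Sed and 0.0514, 0.150 and 0 CPM in WT/Sed (log2 fold change 4.47 ± 0.62, adjusted p = 0.000201), with 5.59 on the log2 scale without WT/Sed replicate 2 and 3.81 without replicate 3. Cxcl14, an epithelial chemokine, was at 8.67, 8.70 and 10.6 CPM in Cdo1KKO/Sed and 2.57, 3.37 and 0.924 CPM in WT/Sed (log2 fold change 2.07 ± 0.39, adjusted p = 0.00573). Cxcl17, a mucosal chemokine, was at 1.65, 1.86 and 1.22 CPM in Cdo1KKO/Sed against 2 counts in WT/Sed, both in replicate 1. Its ratio of counts was 83.0 (95% counting interval 22.7 to 690.5; adjusted p = 2.79e-05). None of these 3 overlapped between groups, where 25.7% of all genes tested had Cdo1KKO/Sed above without overlap. Cxcr5, the receptor of Cxcl13, was close to the limit of detection, with 14 counts in Cdo1KKO/Sed and 0 in WT/Sed, too few to test.

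Fractalkine and Cxcl16 are made as membrane-bound ligands that metalloproteinases shed. Cx3cl1 (fractalkine) stood at 46.1, 48.9 and 49.0 CPM in Cdo1KKO/Sed and 43.5, 38.9 and 36.8 CPM in WT/Sed (log2 fold change 0.27 ± 0.07, adjusted p = 0.0113), and Cxcl16 at 28.4, 28.9 and 27.7 CPM and 22.8, 25.0 and 20.9 CPM in the same order of groups (log2 fold change 0.31 ± 0.08, adjusted p = 0.00908). The groups did not overlap for either gene, against 25.7% of all genes tested with Cdo1KKO/Sed above. Cx3cl1 lost its call when Cdo1KKO/Sed replicate 2 (adjusted p = 0.0503) or 3 (0.06) was left out, within a range of 0.000583 to 0.06 over the alternatives. Exons of Cxcl16 share 18.3% of their bases with Zmynd15 on the opposite strand, and whether counting used the strand is not given in the sources used here. Adam10, which sheds both ligands, rose slightly (log2 fold change 0.17 ± 0.05, adjusted p = 0.0277), and Adam17 did not pass the test (log2 fold change 0.14 ± 0.07, adjusted p = 0.123).

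Cxcl12, the ligand of Cxcr4 made by stromal and endothelial cells, stood at 65.8, 63.7 and 69.8 CPM in Cdo1KKO/Sed and 49.3, 61.2 and 39.5 CPM in WT/Sed. Although the groups did not overlap, the adjusted p was 0.0639 (log2 fold change 0.41 ± 0.15), and it was under 0.05 in 9 of 18 alternatives, among them DESeq2 (0.00488) and the fit without WT/Sed replicate 2 (5.65e-05). WT/Sed replicate 2 was the highest and replicate 3 the lowest of the WT/Sed libraries. Endothelial markers had the same order, with summed levels of 222 to 232 CPM in Cdo1KKO/Sed and of 141, 242 and 59.7 CPM in WT/Sed replicates 1, 2 and 3, and none of the 6 was called. The part of endothelium in the Cxcl12 values was not tested.

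Ligands of Ccr2, which bring monocytes out of the blood, were low in absolute level and higher in Cdo1KKO/Sed. Ccl2 (MCP-1) was at 2.33, 1.86 and 2.66 CPM in Cdo1KKO/Sed and 0.206, 0.600 and 0.243 CPM in WT/Sed (log2 fold change 2.78 ± 0.38, adjusted p = 0.000194). Ccl7 was at 0.306, 0.604 and 0.371 CPM in Cdo1KKO/Sed against 4 counts in all of WT/Sed, and the ratio of counts was 11.5 (95% counting interval 4.23 to 43.8; adjusted p = 0.00514). Its log2 fold change (3.39 ± 0.77) was 2.78 without WT/Sed replicate 1, which had no count. Ccl12, the mouse relative of Ccl2, was at 0.613, 0.352 and 0.305 CPM in Cdo1KKO/Sed and 0.0514, 0.0750 and 0.0486 CPM in WT/Sed (log2 fold change 2.81 ± 0.63, adjusted p = 0.00494). The groups did not overlap in any of these 3 neighbours on chromosome 11, against 25.7% of all genes tested with Cdo1KKO/Sed above. Ccl8, from the same cluster, was too low to test, with 8 counts in Cdo1KKO/Sed and 7 in WT/Sed.

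The CC ligands of the second cluster on chromosome 11 that could be tested rose by similar amounts. Ccl6, a ligand of Ccr1 in rodents, stood at 6.31, 8.83 and 5.75 CPM in Cdo1KKO/Sed and 1.23, 1.76 and 1.12 CPM in WT/Sed (log2 fold change 2.37 ± 0.23, adjusted p = 1.70e-05). Ccl9, another rodent ligand of Ccr1, stood at 4.29, 4.38 and 3.64 CPM in Cdo1KKO/Sed and 0.720, 1.39 and 0.584 CPM in WT/Sed (log2 fold change 2.24 ± 0.29, adjusted p = 0.00013). Ccl5 (RANTES), which acts on Ccr1 and Ccr3, stood at 3.19, 3.87 and 2.62 CPM in Cdo1KKO/Sed and 0.617, 0.750 and 0.389 CPM in WT/Sed (log2 fold change 2.49 ± 0.29, adjusted p = 6.39e-05). All 3 were separated without overlap, against 25.7% of all genes tested with Cdo1KKO/Sed above. Ccl3 and Ccl4, at the end of the same cluster, had only 27 and 9 counts in Cdo1KKO/Sed and 15 and 2 in WT/Sed and were not tested. The eosinophil ligands Ccl11, Ccl24 and Ccl26 had 8, 2 and 0 counts in Cdo1KKO/Sed and 6, 0 and 0 in WT/Sed. Markers of eosinophils, basophils and mast cells summed to at most 0.349 CPM in Cdo1KKO/Sed and 0.18 CPM in WT/Sed, and none could be tested.

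Receptors of these CC ligands rose with them. Ccr2, carried by inflammatory monocytes, was at 8.39, 10.7 and 7.76 CPM in Cdo1KKO/Sed and 3.03, 6.37 and 2.63 CPM in WT/Sed (log2 fold change 1.19 ± 0.33, adjusted p = 0.0256). Ccr1, carried by monocytes and macrophages, was at 1.78, 2.34 and 1.88 CPM in Cdo1KKO/Sed and 0.411, 0.600 and 0.681 CPM in WT/Sed (log2 fold change 1.82 ± 0.29, adjusted p = 0.000569). The groups did not overlap in either receptor, against 25.7% of all genes tested with Cdo1KKO/Sed above. Ccr2 lost its call when WT/Sed replicate 1 (adjusted p = 0.0911), Cdo1KKO/Sed replicate 1 (0.0581) or Cdo1KKO/Sed replicate 2 (0.0776) was left out, within a range of 3.54e-09 to 0.0911 over the alternatives. Between them in the cluster, Ccr3 had 8 counts in Cdo1KKO/Sed and 0 in WT/Sed, and Ccr1l1 had none.

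Monocyte and macrophage markers moved with these ligands and receptors. All 6 monocyte markers rose, with summed levels of 498 to 529 CPM in Cdo1KKO/Sed and 10.2 to 16.6 CPM in WT/Sed, and most of the Cdo1KKO/Sed sum came from Cd14 (log2 fold change 6.23 ± 0.15) and Plac8 (4.77 ± 0.14). Ly6c2, a marker of inflammatory monocytes, was at 2.14 ± 0.319 CPM in Cdo1KKO/Sed and 0.355 ± 0.0604 CPM in WT/Sed. Its log2 fold change was 2.60, against 6.29 for Chil3, 3.15 for Itgam and 1.48 for Fcgr4. The rise of the sum is therefore mainly that of Cd14 and Plac8. Of 9 macrophage markers 6 rose, including Cd68 (log2 fold change 3.16 ± 0.29, adjusted p = 4.66e-05) and Adgre1 (log2 fold change 2.09 ± 0.25, adjusted p = 7.02e-05), and Csf1r fell (log2 fold change -0.33 ± 0.09, adjusted p = 0.012). Over all genes tested, 18.9% rose and 18.5% fell. The part of monocytes and macrophages in the chemokine values was not tested.

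**Figure D3:**
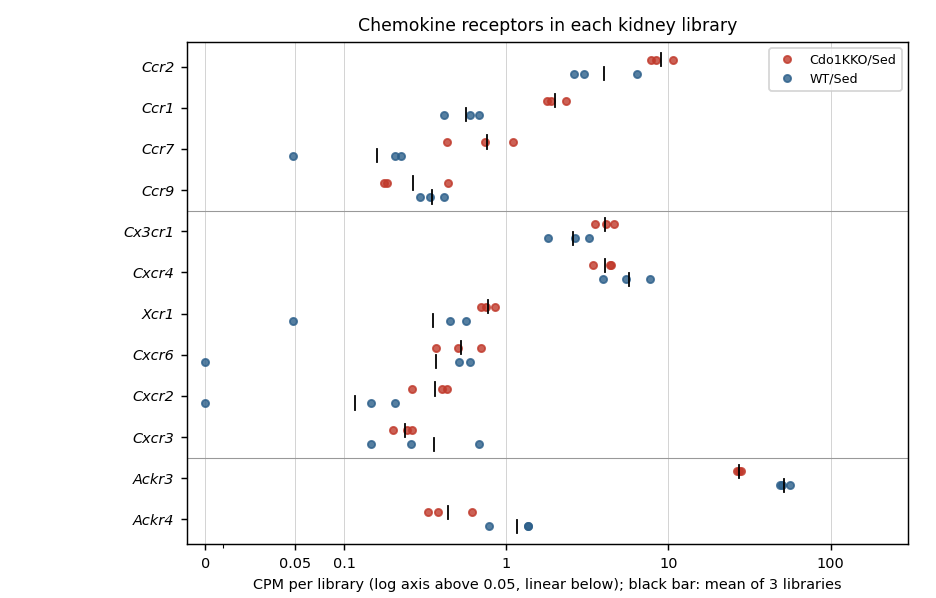
CPM of 10 signalling receptors and 2 atypical receptors in each library, Cdo1KKO/Sed above WT/Sed within each gene; points are libraries and black bars the means of 3. Ccr2, Ccr1 and Ccr7 lie to the right in Cdo1KKO/Sed, Cxcr4, Cxcr6 and Cxcr3 overlap, and Ackr3 and Ackr4 lie to the left.

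Among receptors of lymphoid and resident cells, Ccr7 and Cx3cr1 rose. Ccr7, which takes dendritic cells and T cells to lymph nodes, was at 0.429, 1.11 and 0.741 CPM in Cdo1KKO/Sed and 0.206, 0.225 and 0.0486 CPM in WT/Sed (log2 fold change 2.30 ± 0.58, adjusted p = 0.0096). Leaving out Cdo1KKO/Sed replicate 2 ended the call (adjusted p = 0.0616), within a range of 0.000287 to 0.0616 over the alternatives. Cx3cr1, the fractalkine receptor of resident macrophages, averaged 4.09 ± 0.561 CPM in Cdo1KKO/Sed and 2.56 ± 0.718 CPM in WT/Sed (log2 fold change 0.69 ± 0.23, adjusted p = 0.0335). The adjusted p passed 0.05 when WT/Sed replicate 1 (0.0885) or 3 (0.0717) or Cdo1KKO/Sed replicate 1 (0.0968), 2 (0.0512) or 3 (0.151) was left out, within a range of 0.00351 to 0.151. Xcr1, on cross-presenting dendritic cells, was at 0.770 ± 0.0810 CPM and 0.355 ± 0.271 CPM in the same order of groups, without overlap (log2 fold change 1.14 ± 0.59, adjusted p = 0.159). It was called higher only with TPM plus 1 (adjusted p = 0.0336), and its log2 fold change ran from 0.32 to 1.76 over the alternatives.

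Cxcr4, the most abundant signalling receptor per length in both groups, showed no call. It was at 4.41, 4.38 and 3.44 CPM in Cdo1KKO/Sed and 5.47, 7.65 and 3.94 CPM in WT/Sed, where replicate 2 was again highest and replicate 3 lowest (log2 fold change -0.47 ± 0.23, adjusted p = 0.134). It was called lower without WT/Sed replicate 3 and, in a separate fit, without a filter on low counts (0.0373), with an adjusted p of 0.0073 to 0.612 over the alternatives. Cxcr6, the receptor of Cxcl16, averaged 0.523 ± 0.166 CPM in Cdo1KKO/Sed and 0.371 ± 0.324 CPM in WT/Sed with overlap (log2 fold change 0.57 ± 0.83, adjusted p = 0.637), and the fold change turned to -0.07 without WT/Sed replicate 3, in which it had no count. Ccr9, the receptor of Ccl25, averaged 0.265 ± 0.148 CPM in Cdo1KKO/Sed and 0.347 ± 0.0602 CPM in WT/Sed (log2 fold change -0.35 ± 0.52, adjusted p = 0.641). Ccr10, the receptor of Ccl28, had 25 counts in Cdo1KKO/Sed and 22 in WT/Sed. Ccr4, Ccr6 and Ccr8 had 14, 8 and 2 counts in Cdo1KKO/Sed and 2, 2 and 0 in WT/Sed. Of these 4, none could be tested.

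The lymphoid and barrier ligands gave no rise and 1 fall among 4 tested, where 18.9% of all genes tested rose and 18.5% fell. Ccl28, a mucosal epithelial chemokine, was at 24.8, 27.2 and 22.6 CPM in Cdo1KKO/Sed, against 45.8, 54.3 and 41.7 CPM in WT/Sed. The groups were well apart (log2 fold change -0.93 ± 0.10, adjusted p = 6.02e-05), and Cdo1KKO/Sed held 52.6% of the WT/Sed mean. Ccl25, a thymic and intestinal chemokine, was at 11.2, 9.46 and 10.2 CPM in Cdo1KKO/Sed and 10.8, 11.6 and 10.4 CPM in WT/Sed (log2 fold change -0.08 ± 0.11, adjusted p = 0.578). Ccl27a, known from skin, was at 5.60, 4.96 and 6.87 CPM in Cdo1KKO/Sed and 6.99, 7.16 and 6.71 CPM in WT/Sed (log2 fold change -0.26 ± 0.15, adjusted p = 0.196). For both of these the groups overlapped, and the sign for Ccl25 turned with library size as the only scaling. Exons of Ccl25 share 2.74% of their bases with Elavl1 on the opposite strand. Elavl1 had 1882 to 2533 counts in Cdo1KKO/Sed and 1668 to 2458 in WT/Sed.

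Ligands of Ccr7 were scarce. Ccl21a averaged 0.435 ± 0.293 CPM in Cdo1KKO/Sed and 0.601 ± 0.135 CPM in WT/Sed (log2 fold change -0.41 ± 0.52, adjusted p = 0.579). Its copies Ccl21b and Ccl21d had no count, and how near-identical copies share reads is not known from these tables. Ccl19 had 22 counts in Cdo1KKO/Sed and 8 in WT/Sed, without overlap but below the filter. Ccl20, a ligand of Ccr6, had 38 counts in Cdo1KKO/Sed and 4 in WT/Sed, which gave a ratio of 8.57 (95% counting interval 3.09 to 33.1). Ccl17 and Ccl22, the ligands of Ccr4 that flank Cx3cl1 on chromosome 8, had 12 and 16 counts in Cdo1KKO/Sed and 6 and 12 in WT/Sed. Ccl1 had 2 counts in Cdo1KKO/Sed and 0 in WT/Sed, and Xcl1 had 3 and 2 in the same order of groups.

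Both atypical receptors that could be tested fell, where 18.5% of all genes tested did. Ackr3, which scavenges Cxcl12, was at 26.4, 27.2 and 28.1 CPM in Cdo1KKO/Sed and 50.3, 48.9 and 56.5 CPM in WT/Sed. The groups did not overlap and the libraries of each group lay close together (log2 fold change -0.93 ± 0.07, adjusted p = 2.56e-06). Ackr3 was also the most abundant receptor of any kind per length, at 22.0 ± 0.757 TPM in Cdo1KKO/Sed and 35.2 ± 3.20 TPM in WT/Sed (SD, n = 3 each), above Cxcr4 at 6.10 ± 0.786 TPM in Cdo1KKO/Sed and 7.12 ± 2.24 TPM in WT/Sed. Ackr4, which scavenges Ccl19, Ccl21 and Ccl25, averaged 0.439 ± 0.152 CPM in Cdo1KKO/Sed and 1.17 ± 0.332 CPM in WT/Sed (log2 fold change -1.45 ± 0.38, adjusted p = 0.0118). Ackr4 lost its call when WT/Sed replicate 1 (adjusted p = 0.0565) or Cdo1KKO/Sed replicate 2 (0.0513) or 3 (0.0594) was left out and with the TPM values of all genes (0.161), within a range of 0.00198 to 0.161. Its exons share 8.9% of their bases with the far more abundant Acad11 on the opposite strand, which had 4226 to 6029 counts in Cdo1KKO/Sed and 4246 to 9583 in WT/Sed. Ackr2, the scavenger of inflammatory CC ligands, had 16 counts in Cdo1KKO/Sed and 20 in WT/Sed, and Ackr1 had none.

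Per length, the make-up of the ligand transcripts differed between groups. The 38 ligands summed to 399, 421 and 406 TPM in the Cdo1KKO/Sed libraries, against 105.9, 121 and 88.1 TPM in the WT/Sed libraries. Cxcl1 led in Cdo1KKO/Sed at 164 ± 8.84 TPM (SD, n = 3), or 38.9% to 41.2% of the ligand sum, and was sixth in WT/Sed at 5.08 ± 4.32 TPM, or 0.677% to 7.63%. Cxcl1, Cxcl2, Cxcl3 and Cxcl5 together made up 50.4% to 50.6% of the sum in Cdo1KKO/Sed and 0.80% to 7.83% in WT/Sed. Cx3cl1, Cxcl12, Cxcl16 and Ccl28 made up 22.4% to 23.4% in Cdo1KKO/Sed and 68.3% to 77.5% in WT/Sed. The secreted Cxcl1 thus ranked first in Cdo1KKO/Sed and the membrane-bound Cx3cl1 in WT/Sed. In Cdo1KKO/Sed the next places after Cxcl1 were Cx3cl1 (33.0 ± 1.03 TPM), Cxcl16 (25.4 ± 0.329), Cxcl2 (25.0 ± 0.701), Cxcl9 (22.5 ± 1.41) and Cxcl12 (22.0 ± 1.24). Cxcl16 and Cxcl2 lay within their spread of each other, as did Cxcl9 and Cxcl12. In WT/Sed the order was Cx3cl1 (22.9 ± 1.94 TPM), Ccl28 (22.2 ± 2.71), Cxcl16 (17.2 ± 1.32) and Cxcl12 (13.9 ± 2.84), of which the first 2 did not differ beyond their spread. The 19 signalling receptors summed to 18.0 to 20.7 TPM in Cdo1KKO/Sed and 8.39 to 16.4 TPM in WT/Sed, and the atypical receptors, nearly all of it Ackr3, to 22.0 to 23.2 TPM in Cdo1KKO/Sed and 33.3 to 39.4 TPM in WT/Sed.

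**Figure D4:**
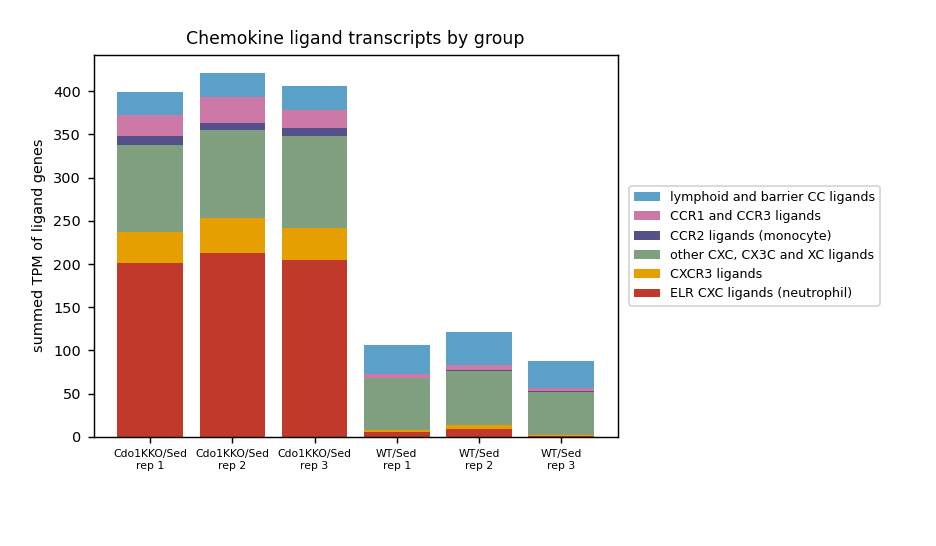
Summed TPM of the 38 ligand genes in each library, Cdo1KKO/Sed left of WT/Sed, stacked by role. The ELR ligands, at the base, form about 50% of the Cdo1KKO/Sed bars, which end at 399 to 421 TPM; the WT/Sed bars end at 88.1 to 121 TPM and consist mainly of the other CXC and CX3C ligands and the lymphoid and barrier ligands.

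Members varied more within WT/Sed than within Cdo1KKO/Sed. Over the 21 members that reached the count minimum in all WT/Sed libraries, the median coefficient of variation was 12.1% in Cdo1KKO/Sed and 25.0% in WT/Sed, against 6.03% and 9.60% over 15313 such genes. Counting error weighs more in this measure at low counts, and of the 21 members 12 were lower in WT/Sed and 3 higher. Its part was not tested. 22 of the 35 members tested (62.9%) were highest in WT/Sed replicate 2 and lowest in replicate 3, as were 27.4% of all genes tested. These 2 libraries also stood at the opposite ends of the second principal component of all genes (14.9% of the variance). The same order held in WT/Sed for the summed macrophage markers (94.5 CPM in replicate 2, 76.3 in 1, 58.9 in 3) and T cell markers (5.43, 3.03 and 2.02), but not for injured tubule markers (5.51, 17.01 and 23.1) or neutrophil markers (2.32, 3.13 and 2.55), nor for the thick ascending limb, collecting duct, lymphatic, platelet and eosinophil lists. Of the remaining lists, fibroblast and pericyte markers rose in 5 of 5, dendritic cell markers in 1 of 7, B and plasma cell markers in 2 of 7, lymphatic endothelial markers in 1 of 3 and platelet markers in 0 of 4 tested, and none of these fell. Thick ascending limb markers rose in 3 and fell in 1 of 4, distal convoluted tubule markers rose in 2 of 3, collecting duct markers rose in 1 and fell in 1 of 6, and podocyte markers fell in 1 of 5. Over all genes tested, 18.9% rose and 18.5% fell. With WT/Sed replicate 2 or 3 left out, Cxcl1 kept its call, and its log2 fold change over all alternatives ran from 4.26 to 5.66.

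**Figure D5:**
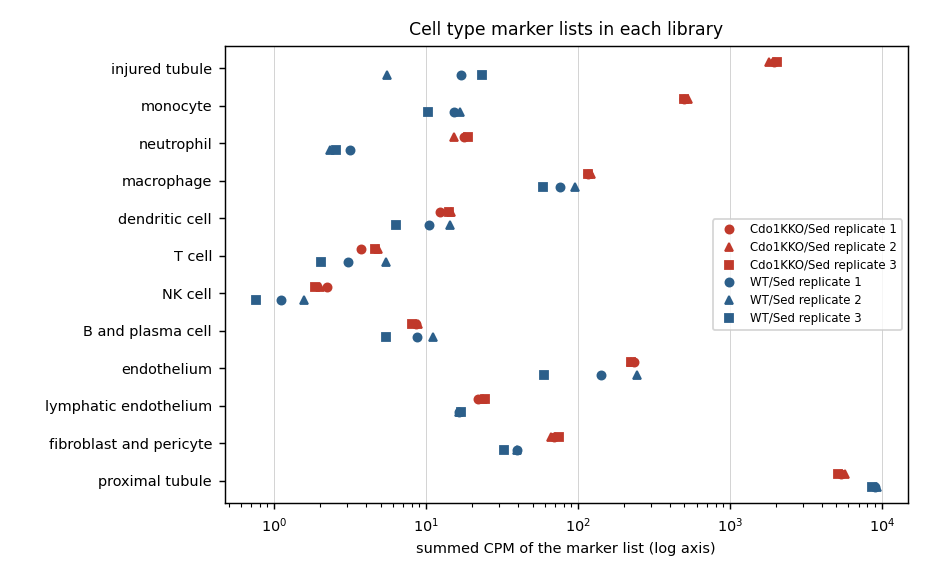
Summed CPM of 12 marker lists in each library on a log axis, Cdo1KKO/Sed above WT/Sed; symbols give the replicate. Injured tubule, monocyte and neutrophil lists are far higher in Cdo1KKO/Sed, while the T cell, B cell and endothelium lists of WT/Sed spread around the Cdo1KKO/Sed values, with replicate 2 to the right and replicate 3 to the left. Most of the monocyte sum in Cdo1KKO/Sed is Cd14 and Plac8.

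Genes listed for the induction of chemokine transcription, among them the NF-kappaB inhibitor gene Nfkbia, were mostly higher. Of 25 listed, 21 were tested, and 18 rose and 0 fell (median log2 fold change 1.18), where 18.9% and 18.5% of all genes tested did. Nfkbiz, Nfkbia and Nfkb1, which encode NF-kappaB proteins or inhibitors that NF-kappaB itself induces, rose (log2 fold change 1.64 ± 0.09, adjusted p = 2.44e-07; 1.18 ± 0.08 and 0.94 ± 0.08 on the same scale). Irf7, an interferon regulatory factor, rose most among the 4 with the smallest p (log2 fold change 4.47 ± 0.19, adjusted p = 3.44e-06). Among cytokines named after their values were seen, Il6 was at 1.44 ± 0.439 CPM in Cdo1KKO/Sed and 0.0250 ± 0.0433 CPM in WT/Sed, Tnf at 0.707 ± 0.214 CPM and 0.0583 ± 0.0145 CPM, and Il1b at 3.70 ± 0.334 CPM and 0.673 ± 0.183 CPM in the same order of groups, and all 3 rose. Il17a and Ifnb1 had no count, like Ifng.

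Adhesion genes that arrest leukocytes on endothelium rose in 9 of 13 tested (15 listed) and fell in 0, with a median of 1.10. Over all genes tested, 18.9% rose and 18.5% fell. Icam1 was at 28.5 ± 1.07 CPM in Cdo1KKO/Sed and 9.88 ± 0.182 CPM in WT/Sed (log2 fold change 1.53 ± 0.08, adjusted p = 1.12e-07), and Itgam and Itgb1, which encode integrin chains, rose by 3.15 ± 0.24 and 0.36 ± 0.06 on the log2 scale. Itga4, another integrin chain, rose too, with 7.01 ± 0.560 CPM in Cdo1KKO/Sed and 2.51 ± 0.470 CPM in WT/Sed (adjusted p = 5.76e-05). Downstream of the receptors, 16 of 35 signalling genes tested rose and Gnai1 fell (-0.63 ± 0.10), with a median of 0.67, against the same 18.9% and 18.5%. Stat3 (log2 fold change 1.39 ± 0.06, adjusted p = 2.35e-08), the leukocyte kinase Fgr (2.35 ± 0.24) and the receptor kinase Grk3 (0.87 ± 0.11) were among those with the smallest p. With the TPM values plus 1, 27 of this list rose.

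Of 20 cofactors, decoys and processing enzymes tested, 8 rose and 2 fell, where 18.9% and 18.5% of all genes tested did. The syndecans Sdc1 (log2 fold change 1.74 ± 0.08, adjusted p = 8.77e-08) and Sdc4 (0.35 ± 0.06), whose heparan sulfate chains hold chemokines, and the chemoattractant precursor Rarres2 (0.60 ± 0.09) rose. Dpp4, a peptidase that clips many chemokines, fell (log2 fold change -0.44 ± 0.05, adjusted p = 5.71e-05), as did Mif (log2 fold change -0.36 ± 0.09, adjusted p = 0.011). The platelet chemokines Ppbp and Pf4, which lie outside the naming rule, showed no call. Rises in this list numbered 5 when Cdo1KKO/Sed replicate 1 was left out, and falls 1 when that library, Cdo1KKO/Sed replicate 3 or WT/Sed replicate 1 was left out.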

How the data were processed

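RNA from 6 mouse kidneys was enriched with oligo(dT) beads and sequenced, per the labels' protocols, with 3 libraries labelled Cdo1KKO/Sed and 3 labelled WT/Sed. The authors deposited a table of raw counts per gene and a table of TPM values (scaled by gene length), each with the 6 libraries as columns. fastp 0.23.4 and the GRCm38 (mm10) genome are named per the submitters' processing notes; for the aligner, the counter and the use of strand, the sources used here give nothing. Genes with too few counts were left out by edgeR's filterByExpr, which kept 17194 genes (0.253 CPM, or 10 counts at the median library, in 3 libraries). Counts were scaled by TMM to give CPM and compared with edgeR 4.0.16 (robust quasi-likelihood F test, Benjamini-Hochberg adjustment over 17194 genes, threshold 0.05) in R 4.3.3; the SE given is the size of the log2 fold change over the root of F. The alternatives used DESeq2 1.42.0, limma-voom 3.58.1, other scalings and filters, TPM with limma, each library left out, and the replicate number as a block. Positions are from GENCODE M21 and promoters from RefSeq (GRCm38.p6). Totals ran from 28145261 to 43872779 counts, and intervals cover counting error only. The members, roles and lists were chosen with earlier results of these data known. Every member tested is named except 1, which like 1 signalling gene is counted but not reported here; values per library are given for members past the threshold with a log2 fold change of at least 1.5 in size or a mean of at least 5 CPM, and for some others. Of each pathway list up to 4 genes with the smallest p are named, with exceptions chosen after their values were seen (Adam10, Adam17, Gnai1, Mif, Ppbp, Pf4 and the cytokines).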

Additional observations from a re-analysis of the deposited data

How the results depend on the processing

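Of the 25 members that rose or fell, 19 kept direction and call in each of the 18 alternatives that tested them, 6 lost the call in at least 1 (Cxcl1, Cx3cl1, Ackr4, Cx3cr1, Ccr2 and Ccr7) and 0 reversed. Leaving out single libraries gave 18 to 24 members higher and 2 to 4 lower. Same-numbered libraries did not deviate together (correlations of -0.00218, 0.0105 and 0.0125), so the numbers were not used as pairs; a replicate block gave 20 members higher and 3 lower, with adjusted p of 0.0569 for Cxcl1 and 0.0559 for Cx3cr1. Without a filter 24 of 54 members rose and 4 fell. Halved counts, an alternative added after seeing the data, left 29 members tested, 19 higher and 3 lower. Over all genes, 3250 rose and 3185 fell, against 5513 and 1685 with library size only, 6784 and 1246 with TPM plus 1, 6660 and 1224 with TPM plus 0.1, and 5469 and 1010 with TPM of all genes; these scalings moved the median of all genes by up to 0.25. Ccl25 reversed to 0.085, 0.13, 0.16 and 0.13 on the log2 scale under the same 4 settings, Cxcr3 to 0.23 without WT/Sed replicate 2 (-0.92 to 0.23 with single libraries left out) and Cxcr6 to -0.066 without WT/Sed replicate 3 (-0.066 to 1.05); the cause was not tested. Signalling genes rose in 16, and in 27 and 26 with TPM plus 1 and plus 0.1; 1 fell, and 0 with TPM of all genes. Chemokine-like genes rose in 8, in 5 with a filter of 1 CPM and 5 to 11 with single libraries left out, and fell in 2, or 1 with library size only and with each TPM setting.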
